A study of Mus musculus with 25 samples.

Results

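A divergent promoter pair is a pair of genes on opposite strands whose transcripts start close together and run away from each other. Pairs were taken from the deposited ATAC-seq table of mouse retinal cells, which covers 28488 runs of 50 consecutive windows of 200 bp, each run centred on a transcript start in the mm9 build. Of these runs, 24126 belong to transcripts with a RefSeq mRNA identifier. A pair was kept where the centres of 2 such runs, with different gene symbols and on opposite strands, lay 0 to 1000 bp apart, the + strand centre to the right. This gave 853 pairs of 1695 gene symbols, or 8.29% of the 20436 symbols with such runs, and 1844 runs. No expression or accessibility value entered the choice. Of the symbols, 11 stood in 2 pairs, and 15 pairs held replication-dependent histone genes.

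In a divergent pair, transcription starts on both strands of a short shared stretch of DNA, which is kept free of nucleosomes when it is active. Such promoters are common in mammalian genomes, are often CpG islands without a TATA box, and often serve housekeeping genes such as those of DNA repair, mitochondria and protein synthesis. The replication-dependent histone genes, which are used in S phase, are a classical case in which both partners are of the same family. ATAC-seq reports open DNA through the places where a transposase can insert its adapters.

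The stretches between the 2 starts are shown for 7 pairs to which the results below return: 3 pairs known from textbooks and the leading pairs of the RNA and ATAC comparisons. They are RefSeq sequence of the GRCm38.p6 build, on the + strand from 5′ to 3′, from the base after the − strand start to the base before the + strand start. Capitals mark the letters of 6 motifs, searched on both strands. TATAAA is the TATA box. CCAAT is bound by the factor NF-Y. CCGGAAG is a site of ETS factors. GGGCGG, the GC box, is bound by Sp1. AAGATGG is the core of the YY1 site. GCATGCGC is the core of the NRF1 site.
Tsc2/Nthl1 (chr17:24632628-24632681): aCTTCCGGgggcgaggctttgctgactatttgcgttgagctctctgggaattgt
Osgep/Apex1 (chr14:50924894-50924948): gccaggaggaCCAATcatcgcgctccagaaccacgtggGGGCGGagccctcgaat
Sirt3/Psmd13 (chr7:140882310-140882393): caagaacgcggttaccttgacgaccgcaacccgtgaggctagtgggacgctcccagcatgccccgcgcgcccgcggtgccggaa
Hist1h2ah/Hist1h2bk (chr13:22035644-22035820): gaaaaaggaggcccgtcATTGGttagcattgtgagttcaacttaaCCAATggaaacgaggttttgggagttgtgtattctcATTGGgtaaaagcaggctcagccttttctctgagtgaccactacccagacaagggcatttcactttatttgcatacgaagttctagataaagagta
Draxin/Mad2l2 (chr4:148130699-148130919): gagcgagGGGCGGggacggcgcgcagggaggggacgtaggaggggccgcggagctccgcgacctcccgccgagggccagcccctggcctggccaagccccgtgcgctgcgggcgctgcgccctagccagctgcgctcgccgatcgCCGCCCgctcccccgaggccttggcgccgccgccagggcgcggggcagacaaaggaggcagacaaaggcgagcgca
Dbi/3110009E18Rik (chr1:120121097-120121186): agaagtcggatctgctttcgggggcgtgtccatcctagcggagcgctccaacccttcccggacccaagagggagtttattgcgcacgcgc
Rnf25/Stk36 (chr1:74601398-74601454): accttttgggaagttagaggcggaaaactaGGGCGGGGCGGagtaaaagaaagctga
Tsc2/Nthl1 held the ETS letters on the − strand, Osgep/Apex1 a CCAAT and a GC box, and Sirt3/Psmd13 none of the 6. The histone pair Hist1h2ah/Hist1h2bk held CCAAT 3 times within 177 bases, and only 1.69 CG dinucleotides per 100 bases. Draxin/Mad2l2 had 14 CG per 100 bases and 2 GC boxes. In Rnf25/Stk36 the 2 GC boxes overlap. A match is a description of letters, not of a bound factor.

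Over whole promoters, here 250 bases before to 50 after a start, 1446 of the 1695 partner symbols had a RefSeq entry, and 1308 promoters belonged to pairs. The ETS letters were in 30.9% of partner promoters, against 10.6% of 14456 promoters of other genes with mRNA runs and 8.86% of all 32851 promoters of the table. The TATA box stood in 4.66% of partner promoters, against 13.7% of the other genes. Most genes of the pairs are expressed, so the 8427 other genes that passed the RNA filter described below are the closer comparison. Among those, 15.8% held the ETS letters and 6.67% the TATA box. The GC box stood in 69.5% of partner promoters and 66.1% of these other genes (35.7% of all promoters), and CCAAT in 43.4% and 38.4% (37.4% of all). The NRF1 core stood in 7.11% of partner promoters and 5.46% of these other genes (2.71% of all), and the YY1 core in 10.7% and 6.53% (6.34% of all). The TATA box stood in 13.6% of all promoters. Partner promoters held a median of 8 CG per 100 bases, against 7 in the expressed other genes. The 20 promoters of histone pairs stood apart from the rest of the pairs in several letter groups. Of them, 100% held CCAAT, 60% TATAAA, 30% GGGCGG and none the ETS letters, with a median of 3.83 CG per 100 bases. None held the NRF1 or YY1 core either. Those stood in only 7.22% and 10.9% of the other partner promoters, so 20 promoters are too few to show a difference. These shares carry no test, and partners of a pair share part of their sequence.

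The samples were retinal cells of CD1 mice sorted by green fluorescent protein (GFP). GFP+ cells are labelled retinal progenitor cells and GFP- cells post-mitotic retinal cells. The labels do not name the reporter behind GFP. RNA-seq was made of GFP+ and GFP- cells at E14, E18 and P2 (2 libraries for each age and sort, 12 in all), and ATAC-seq of GFP+ cells alone in 13 libraries: 1 at E10 (labelled embryonic day 10/11) and 2 at each later stage, which were E12.5, E14, E16.5 and E18 before birth and P0 and P2 after it. Whether replicates were separate animals is not in the labels; the p-values describe the scatter among the libraries, which may be technical. ATAC counts over the runs came to between 11179094 and 94686369 per library. RNA values are FPKM, which sum to between 383872 and 504845 per library, and the read depth behind them is unknown.

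Some libraries stood apart from their labels. Post-mitotic neuron markers (10 genes, summed) reached 5820 FPKM in the first library labelled E14 GFP- but 109 FPKM in the second, below the 121 and 350 FPKM of E14 GFP+ cells. That second library also held 4034 FPKM of 5 lens genes, against 103 FPKM at most elsewhere. At E18 and P2 the sorts followed their labels: 8 progenitor markers summed to 3424 and 3654 FPKM in E18 GFP+ cells, against 954 and 994 FPKM in E18 GFP- cells, and to 1820 and 2516 FPKM in P2 GFP+ cells, against 1015 and 622 FPKM in P2 GFP- cells. The neuron markers summed to 202 and 226 FPKM in E18 GFP+ cells, against 1384 and 1656 FPKM in E18 GFP- cells. The sum of 4 endothelial markers (Cdh5, Pecam1, Kdr and Cldn5) also differed by sort, at 154 and 158 FPKM in E18 GFP+ cells and 56.8 and 61.8 FPKM in E18 GFP- cells. A sum does not tell which of these genes differs. The 3 erythroid markers found in the table summed to 3.21 and 3.11 FPKM in E18 GFP+ cells, against 75.9 and 48.6 FPKM in E18 GFP- cells, and reached 1249 FPKM in the first E14 GFP- library. Pigment epithelium markers (5 genes) summed to 142 FPKM in the second E14 GFP- library and to at most 4.76 FPKM elsewhere. Whether these sums stand for such cells, and what part they have in the results, was not tested. Among ATAC libraries, E10 and the second P2 library had the weakest signal at transcript starts. RNA results are therefore given with all 12 libraries and without the 4 of E14, and ATAC results also without E10 and P2.

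The starts of a pair lay close together. The median distance was 162 bp, with quartiles of 80 and 304 bp. In 270 pairs (31.7%) the starts lay up to 100 bp apart, in 234 over 100 and up to 200 bp, in 130 up to 300 bp, in 114 up to 500 bp and in 105 up to 1000 bp. Just inside the limits stood Tcta/Rhoa at 1 bp and Sgsm2/Tsr1 at 1000 bp, and just outside them Ddias/Prcp at 1006 bp and Ikbkap/Fam206a, whose starts overlap slightly. A further 99 symbol pairs overlapped by up to 1000 bp and were not members. The 10 kb runs of the 2 partners shared a median of 98.4% of their length, so the ATAC values of partners are nearly the same reads and are not independent.

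Of 16 divergent pairs known from textbooks, 12 met the rule. They include Mcm4/Prkdc (466 bp apart; a subunit of the replicative helicase and the kinase of double-strand break repair), Atm/Npat (376 bp; the DNA damage kinase and a coactivator of histone genes), Hspd1/Hspe1 (216 bp; the mitochondrial chaperonin and its co-chaperonin), Brca1/Nbr1 (152 bp; a DNA repair protein and an autophagy receptor), Sirt3/Psmd13 (85 bp; a mitochondrial deacetylase and a proteasome subunit) and Tsc2/Nthl1 (55 bp; an inhibitor of mTOR signalling and a DNA glycosylase). Among those that did not were Surf1/Surf2, Col4a1/Col4a2 and Ppat/Paics, whose annotated starts overlap. Gene groups entered pairs unevenly: 26 of 67 replication-dependent histone genes (38.8%), 27 of 80 DNA repair genes (33.8%) and 26 of 77 genes of the mitochondrial ribosome (33.8%) were partners, while none of 67 retinal transcription factors was. In between lay 27 of 96 respiratory chain genes (28.1%), 9 of 32 tRNA synthetases (28.1%), 14 of 58 DNA replication genes (24.1%), 13 of 60 mitosis genes (21.7%), 7 of 40 proteasome genes (17.5%) and 12 of 85 cytosolic ribosome genes (14.1%). Over all symbols with mRNA runs the share was 8.29%. It is larger among expressed genes: of those that passed the RNA filter described below, 1547 were partners and 11144 were not. The shares of the groups were not tested.

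Divergent promoters were more open than other promoters. Start enrichment divides the mean signal of the 400 bp around the start by that of the 6 windows furthest from it. In pairs up to 200 bp apart, these 400 bp hold the starts of both partners. For the pairs it was 52.1 and 48.2 at E12.5, 61.8 and 63.7 at E14, 71.4 and 62.2 at E16.5, 64.7 and 63.1 at E18, 72.5 and 76 at P0, and 59.3 and 29.5 at P2. The single E10 library gave 12. Over the 22282 other mRNA runs it was between 6.59 at E10 and 29.3 at P0, with a median of 25.6 over libraries, against 62.2 for the pairs. The pairs were higher in each of the 13 libraries, by a median ratio of 2.53. This ratio was 1.95 against other runs whose gene passed the RNA filter and 2.05 against runs with no start of another gene within 5000 bp. The central 400 bp held a median of 11.7 CPM (counts scaled to the library total over all runs) per window in pairs, against 5.26 CPM in other runs. The flanks held 0.192 CPM per window in pairs and 0.21 CPM in other runs. Among runs whose gene passed the RNA filter, the centre held 12.3 CPM in pairs and 8.14 CPM in other runs, and the flanks 0.195 CPM in pairs and 0.262 CPM in other runs. These are descriptions over regions, which are not replicates, and no test was made.

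**Figure D1:**
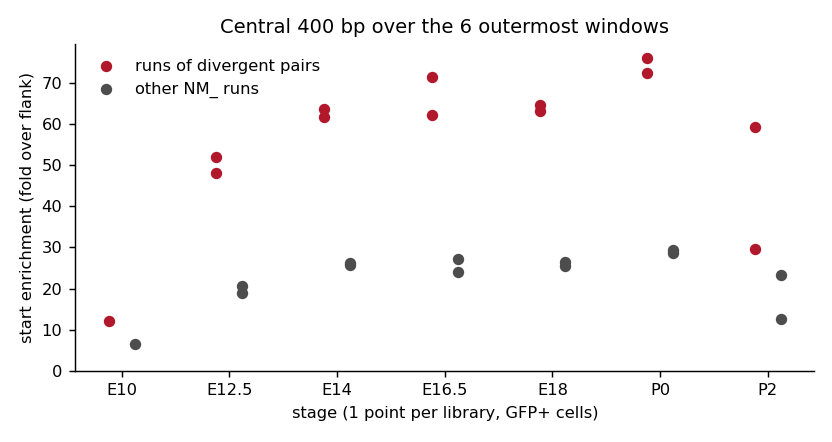
Start enrichment (signal of the 400 bp around the start divided by that of the 6 furthest windows, as a fold) for each of the 13 ATAC-seq libraries, divergent pairs and other mRNA runs. The pairs lie above the other runs in every library, with E10 (12) and the second P2 library (29.5) lowest among the pairs.

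The shape of the open region followed the pair. Read in the direction of each gene, the 200 to 1000 bp upstream of the start held 2.05 times the signal of the same stretch downstream in pairs (range over libraries 1.79 to 2.25), whereas in other runs the ratio was 0.865 (0.825 to 0.946). The partner's start lies upstream by the rule, but it is within this stretch only in pairs over 200 bp apart. In the closer pairs (270 up to 100 bp apart and 234 up to 200 bp) it lies within the central 400 bp. Centred on the middle of each pair, the mean profile was 577 bp wide at mid-height (517 to 658 bp over libraries). For other single starts it was 439 bp (424 to 774 bp). Those starts stand at a window edge, so their profile moves in 200 bp steps and the 2 widths are not like for like. At E10 other single starts were the wider, at 598 against 581 bp. So they were in the first E12.5 library (754 against 608 bp) and the second P2 library (774 against 658 bp).

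**Figure D2:**
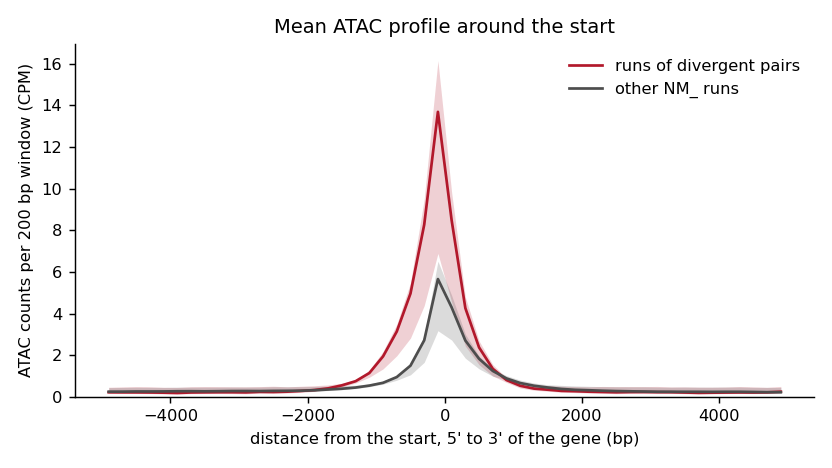
Mean ATAC-seq signal (CPM per 200 bp window) by distance from the transcript start in bp, with the gene running to the right, for divergent pairs and other mRNA runs. In pairs the signal is higher and extends further upstream of the start, where it is 2.05 times the downstream signal.

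Pairs with distant starts had the widest mean profiles. Classes were set by the distance between starts and averaged around the middle, so wider spacing widens the mean profile by construction. No width was measured in a single pair. The width was 489 bp for starts up to 100 bp apart, 475 bp over 100 and up to 200 bp, 532 bp up to 300 bp, 670 bp up to 500 bp and 1059 bp up to 1000 bp. The ranges over libraries of the first 3 classes overlapped (453 to 543 bp, 321 to 553 bp and 491 to 585 bp), while the most distant class (977 to 1194 bp) lay above all others. The maximum was highest in the third class (18 CPM per 200 bp), against 11.4 CPM in the closest pairs and 11.8 CPM in the most distant. In the most distant class the signal dipped to 9.07 CPM midway between the starts. In the closest pairs the middle (11.2 CPM) and the maximum were nearly the same.

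**Figure D3:**
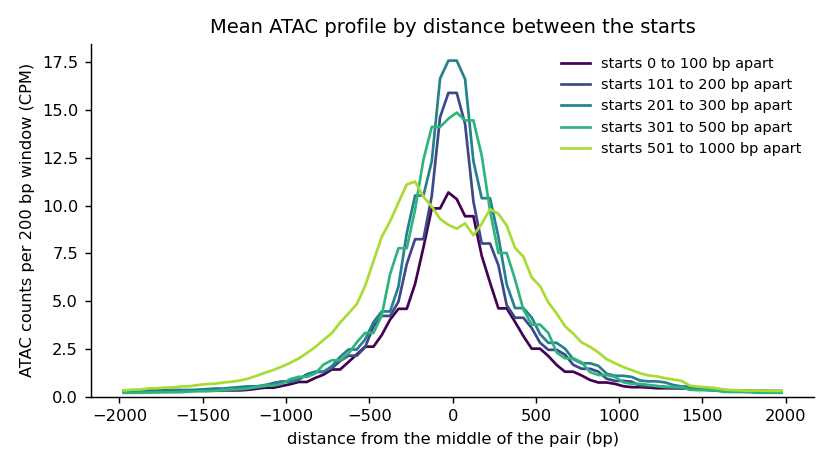
Mean ATAC-seq signal (CPM per 200 bp) around the middle of divergent pairs, in bp from that middle, for 5 classes of distance between the starts. The width at mid-height is 489 bp in the closest pairs and 1059 bp in the most distant, where the middle dips to 9.07 CPM.

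Over developmental stages the runs of pairs changed at a share near that of all runs, but mostly in one direction. Counts over the 10 kb runs were tested with edgeR's quasi-likelihood test, with p-values adjusted over all 28048 runs tested and a threshold of 0.05. From E12.5 to P2, 1413 of 1844 runs of pairs changed (76.6%), against 75.6% of all runs tested. At P0 relative to E12.5, 1012 runs of pairs were higher (54.9%), against 29.8% of all runs. Only 44 were lower (2.39%), against 32% of all runs. The median log2 difference was 0.38 in pairs and 0.00 over all runs. In 452 pairs both runs were higher, in 21 both were lower, and in none did partner runs move in opposite ways (0 pairs also at an unadjusted p and with DESeq2). Partner runs nearly coincide.

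This direction moved with how much signal a run holds. In the quartile of mRNA runs with the highest CPM, 52.8% of 915 pair runs were higher at P0 and 0.219% lower, against 52.7% and 2.09% of 5016 other runs. In the next quartile, 65.8% of pair runs were higher, against 52.6% of other runs, and in the one below it 34.8% against 18%. Of other runs whose gene passed the RNA filter, 43.8% were higher and 13.9% lower, against 57.4% and 0.532% of such pair runs. Start enrichment also differed between these stages in other runs (28.6 and 29.3 at P0, against 20.5 and 19 at E12.5), and its part in these counts was not tested. The range over stages had a median of 0.58 log2 units in pairs and 0.73 in other runs; within the highest quartile it was 0.61 and 0.60.

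**Figure D4:**
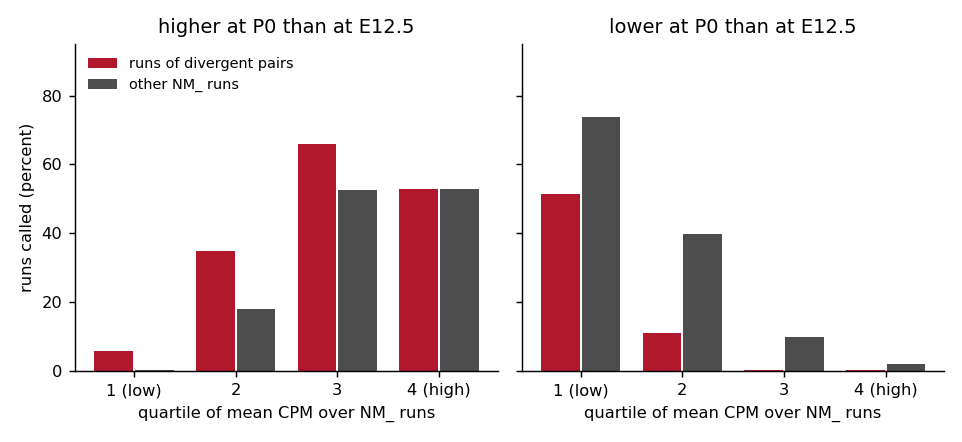
Share of runs (%) higher or lower at P0 than at E12.5 by edgeR, for divergent pairs and other mRNA runs, in quartiles of mean CPM. In the highest quartile the shares higher at P0 are 52.8% for pairs and 52.7% for other runs.

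Stage by stage, the median run of a pair stood at -0.41 at E10 on the log2 scale relative to E12.5, at 0.30 and 0.36 at E14, 0.33 and 0.26 at E16.5, 0.31 and 0.36 at E18, 0.38 and 0.38 at P0, and 0.29 and -0.17 at P2. From E14 to P0 the medians stayed between 0.26 and 0.38. The 2 P2 libraries fell on either side of E12.5. Without E10 and both P2 libraries, a choice made after the data were seen, 1378 runs of pairs (74.7%) were higher at P0, against 38.7% of all runs, and 87 (4.72%) were lower, against 39.1% of all runs. Leaving out the second E12.5 or the first P0 library lowered both counts of pair runs (1012 higher and 44 lower with all libraries). Without the second E12.5 library, the share of all runs higher at P0 fell as well. With either P2 library left out, more pair runs were lower than with all libraries.

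The pair with the largest rise was Rnf25/Stk36, a ubiquitin ligase and a kinase needed for motile cilia, with starts 58 bp apart. Its Rnf25 run, here in CPM after TMM scaling, held 44.7 and 45.3 at P0, against 20.2 and 17.8 at E12.5. At the stages between, it held 32 to 40 CPM, with 26.8 CPM at E10 and 35.4 and 26.5 CPM at P2. The log2 difference of P0 from E12.5 was 1.24 ± 0.13 (SE; edgeR adjusted p = 1.36e-12), and the groups did not overlap. Brd8/Kif20a, a bromodomain protein and a kinesin of cytokinesis, followed with 85.3 and 79.3 CPM at P0, against 40.3 and 34.1 CPM at E12.5 (Brd8 run, log2 1.15 ± 0.16, edgeR adjusted p = 1.78e-08). Rbak/Spdye4b and Nedd8/Gmpr2 each rose by 1.20 on the log2 scale in the run of the first-named gene. Nedd8 encodes a ubiquitin-like modifier and Gmpr2 a GMP reductase. RNA was not measured at E12.5 or P0. Rnf25 had 33 and 34.2 FPKM in P2 GFP+ cells, against 35 and 33.5 FPKM in E14 GFP+ cells, and Spdye4b stayed at or below 0.0712 FPKM in all 12 libraries.

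Of the 44 runs that fell, 9 belonged to genes that passed the RNA filter described below. Hspb2/Cryab, 2 small heat shock proteins with starts 617 bp apart, had 4.84 and 6.44 CPM at P0 in the Hspb2 run, against 20.7 and 20.2 CPM at E12.5 (log2 -1.88 ± 0.28, edgeR adjusted p = 6.74e-08). E10 held 17.5 CPM, the stages from E14 to E18 5.29 to 9.78 CPM, and P2 10 and 14.2 CPM. Cryab is also a lens crystallin: its RNA was 166 FPKM in the second E14 GFP- library, which carries the other lens genes, and at most 2.38 FPKM elsewhere. Plcz1/Capza3, a phospholipase and an actin-capping protein of sperm, had 4.36 and 3.12 CPM at P0 in the Plcz1 run, against 9.46 and 12.2 CPM at E12.5 (log2 -1.51 ± 0.39, edgeR adjusted p = 0.000769). This run held only 32 to 361 counts per library, and RNA of both genes stayed at or below 0.117 FPKM. Low signal and a fall went together: in the quartile of mRNA runs with the lowest CPM, 51.4% of 35 pair runs and 73.9% of 5897 other runs were lower at P0. Gml/Gml2 and Gm9112/Dmrtc1b also fell, on few counts (2 to 163 per library), and their RNA was listed at 0 in nearly every library. Among the steadiest pairs were Erp29/Tmem116, with an endoplasmic reticulum chaperone, and Sirt6/Ankrd24, with a nuclear deacetylase. The Erp29 run held 65.1 and 59.6 CPM at P0, against 58.1 and 55.3 CPM at E12.5, and its range over stages was 0.14 log2 units.

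Between P0 and E12.5, both runs passed the test in 6 of 12 known pairs. That is near the share over all 853 pairs, of which 452 (53%) had both runs higher and 21 both lower. Gart/Son, an enzyme of purine synthesis and a splicing cofactor, rose most, with 126 and 121 CPM at P0 in the Gart run, against 72.1 and 65.3 CPM at E12.5 (log2 0.84 ± 0.18, edgeR adjusted p = 7.94e-05). Toe1/Mutyh, a deadenylase and a DNA glycosylase, had 65.7 and 71.3 CPM at P0 in the Toe1 run, against 43.4 and 44.5 CPM at E12.5 (log2 0.64 ± 0.15, edgeR adjusted p = 0.000389). Atm/Npat had 90.4 and 91.2 CPM at P0 in the Atm run, against 85.7 and 78.4 CPM at E12.5, and did not pass the test. By gene group, to be read against 54.9% of all runs of pairs and 29.8% of all runs, those higher at P0 were 21 of 27 of the mitochondrial ribosome, 11 of 15 of mitosis, 10 of 14 of the cytosolic ribosome, 8 of 9 of tRNA synthetases, 10 of 16 of DNA replication, 15 of 28 of DNA repair, 16 of 31 of the respiratory chain, 3 of 7 of the proteasome and 13 of 28 of histone genes. Only 1 run, of DNA repair, was lower.

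RNA of the partners was measured for 1687 of 1695 symbols. Their median level was between 12.8 and 16.7 FPKM over the 12 libraries, against 1.61 to 2.83 FPKM in 18512 other genes with mRNA runs. At least 1 FPKM was reached by 86.8% to 90.1% of partners, against 52.5% to 56.5% of other genes. The RNA filter, at least 1 FPKM in at least 2 libraries, was passed by 1547 partners (91.7%) and by 60.2% of the others. Among genes that passed, the levels were closer, with a median over libraries of 17.2 FPKM in partners and 12.7 FPKM in others. Both partners reached 1 FPKM in 668 to 711 of 846 pairs (79% to 84%), 1 partner alone in 97 to 129 and neither in 32 to 49. In bulk samples, fewer cells of a type and less RNA per cell cannot be told apart.

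The 2 genes of a pair often differed in level. Their FPKM differed by a median of 1.29 to 1.56 log2 units, and by more than 4-fold in 32.5% to 41.8% of pairs. Across pairs, the levels of the 2 partners (log2 of FPKM + 1) correlated with r = 0.196 to 0.259 over the 12 libraries. In 1220 pairs of neighbouring starts on the same strand within 10 kb, r was 0.424 to 0.543. In those, both genes reached 1 FPKM in only 30.8% to 40%, against 79% to 84% of divergent pairs. All pairs entered r, expressed or not, so the r values of the 2 sets are not directly comparable. These correlations are across pairs within a library and carry no test.

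Differences in RNA were tested with limma on log2(FPKM + 1), with p-values adjusted over all 14276 genes tested. In E18 GFP+ cells against E18 GFP- cells, 38 of 1547 partners were higher (2.46%), against 1.13% of all genes, and 4 were lower (0.259%), against 2.49% of all genes (3.61% in either direction). Of the 38, 20 were histone genes. Without the E14 libraries, 522 partners were higher (33.9%), against 25.5% of all genes, and 176 lower (11.4%), against 25.6% (51.1% of all genes in either direction). The median log2 difference was 0.21 in partners and 0.00 over all genes. In P2 GFP+ cells against P2 GFP- cells, 1 partner was higher (0.0646%; all genes 0.112%) and 4 lower (0.259%; all genes 1.37%, and 1.49% in either direction). Without the E14 libraries these were 277 (18%; all genes 16.2%) and 135 (8.78%; all genes 17.7%, and 34% in either direction). In P2 GFP+ cells against E14 GFP+ cells, 5 were higher (0.323%; all genes 0.932%) and 5 lower (0.323%; all genes 0.217%; either direction 1.15%). These counts rest on single libraries. Calls over all genes moved too, from 1.13% to 25.5% higher at E18 without the E14 libraries. The counts that follow are of partners alone, without the share of all genes, and show only how unstable the calls are. With either E14 GFP- library left out, at least 464 partners were higher and 153 lower at E18, and at least 189 and 98 at P2. With any 1 of the 4 E18 libraries left out, 2 or 3 were higher and none lower at E18; with a P2 library left out, 14 or 21 were higher and at most 2 lower. At P2, leaving out any library other than E14 GFP- left none higher. Between ages, 40 were higher and 52 lower with either E14 GFP- library left out, none and 1 with the second E14 GFP+ library left out, and at most 2 higher and none lower with any 1 E18 or P2 library left out.

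The histone pairs carried all the pairs in which both partners passed the test. At E18, 20 of 25 tested histone partners were higher in GFP+ cells and none was lower, with a median log2 difference of 1.91. Histone genes outside pairs were alike, with 31 of 40 higher, 0 lower and a median of 1.84. Hist1h2ah had 133 and 286 FPKM in E18 GFP+ cells, against 9.92 and 11.2 FPKM in E18 GFP- cells (log2 4.08 ± 0.33, limma adjusted p = 0.00176). Its partner Hist1h2bk had 527 and 666 FPKM in E18 GFP+ cells, against 111 and 154 FPKM in E18 GFP- cells (log2 2.17 ± 0.33, limma adjusted p = 0.0205). Both sorts were far above the other 8 libraries, in which Hist1h2ah stayed at or below 0.135 FPKM. Hist1h2br was paired with both Hist1h2ao (168 bp) and Hist1h2ap (268 bp), of which Hist1h2ap did not pass the test (limma adjusted p = 0.0767). In GRCm38.p6 its RefSeq start pairs with that of Hist1h2ap, and that of Hist1h2ao with Hist1h2bq. Hist1h2br had 27.3 and 34.2 FPKM in E18 GFP+ cells, against 2.11 and 3.98 FPKM in E18 GFP- cells (log2 3.0 ± 0.24, limma adjusted p = 0.00176). Hist2h2be was level with the other ages, unlike its partner, and did not pass the test (limma adjusted p = 0.527). It had 10 and 10.6 FPKM in E18 GFP+ cells and 7.43 and 8.25 FPKM in E18 GFP- cells, while its partner Hist2h2ac had 283 and 409 FPKM in E18 GFP+ cells, against 95.7 and 108 FPKM in E18 GFP- cells.

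The level of all histone RNA set the E18 libraries apart. The 69 replication-dependent histone genes took 7.73% and 9.57% of all FPKM in E18 GFP+ cells and 2.61% and 3.15% in E18 GFP- cells, but 0.0338% to 0.0572% in the 8 libraries of E14 and P2. Replication-dependent histone mRNAs normally carry no polyA tail. The labels give polyA RNA as the molecule and a total RNA kit in the protocol for all libraries alike, and what share of the E18 difference this touches was not tested. At P2, the median log2 difference of the 25 histone partners was 0.06 and none passed the test (limma; 4 at an unadjusted p under 0.05). Histone genes are near-identical copies, so the split of reads between them is uncertain. ATAC counts at Hist1h2ah changed over stages (edgeR adjusted p = 3.2e-09), with 72.8 and 61.8 CPM at E12.5, 156 and 153 CPM at E14, 109 and 115 CPM at E16.5, 133 and 147 CPM at E18, 91.2 and 92.4 CPM at P0, and 86.9 and 55.2 CPM at P2.

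Outside the histones, 18 partners were higher and 4 lower at E18, and with all 12 libraries the other partner passed the test in none of these 22. Without the E14 libraries, 9 of the other partners passed in the same direction and 1, Arel1 beside Fcf1, in the opposite one. Named after their values were seen, the higher genes included Ndufa2 and Ndufaf8 (respiratory complex I and its assembly), Mrpl13 (mitochondrial ribosome), Anapc13 (anaphase-promoting complex), Lsm3 (splicing), Pfdn6 (prefoldin) and Nsmce2 (the SMC5/6 complex). Nsmce2 had 37.5 and 35.9 FPKM in E18 GFP+ cells, against 17.8 and 20.2 FPKM in E18 GFP- cells (log2 0.92 ± 0.13, limma adjusted p = 0.0161). Its partner Washc5, 46 bp away, differed by 0.37 (limma adjusted p = 0.113, and 0.0194 without E14). Itgb3bp, a centromere protein, had the largest difference of the 18, with 17 and 18.2 FPKM in E18 GFP+ cells, against 6.04 and 6.12 FPKM in E18 GFP- cells (log2 1.39 ± 0.30, limma adjusted p = 0.0441). Its partner Efcab7 differed by 0.39.

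Draxin/Mad2l2 had the largest gap between partners among pairs with a partner that passed the test at E18 and a mean of at least 5 FPKM in the higher group. Draxin, a secreted axon guidance protein, had 1.43 and 1.34 FPKM in E18 GFP+ cells, against 11.9 and 14.4 FPKM in E18 GFP- cells (log2 -2.56 ± 0.52, limma adjusted p = 0.0409). Mad2l2, a subunit of DNA polymerase zeta, starts 222 bp away and had 12.8 and 14.4 FPKM in E18 GFP+ cells, against 16.5 and 17.2 FPKM in E18 GFP- cells (log2 -0.29, limma adjusted p = 0.325). The CG-rich stretch between them is printed above. Acad10/Brap was alike. Acad10, an acyl-CoA dehydrogenase family member, had 1.46 and 1.42 FPKM in E18 GFP+ cells, against 6.12 and 6.52 FPKM in E18 GFP- cells (log2 -1.59 ± 0.26, limma adjusted p = 0.0241), and Brap, 53 bp away, differed by 0.03. Chpf, an enzyme of chondroitin synthesis, had 11.7 and 11.4 FPKM in E18 GFP+ cells, against 22 and 28.6 FPKM in E18 GFP- cells (log2 -1.06 ± 0.21, limma adjusted p = 0.0376). Its partner Tmem198, 61 bp away, differed the same way, with 3.64 and 3.91 FPKM in E18 GFP+ cells, against 18.8 and 22.2 FPKM in E18 GFP- cells (log2 -2.17, limma adjusted p = 0.15, and 1.92e-05 without E14).

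At P2, Rom1 had the highest level among partners that passed. Rom1, a disc membrane protein of rod photoreceptors, had 35.3 and 17.7 FPKM in P2 GFP+ cells, against 103 and 283 FPKM in P2 GFP- cells (log2 -2.72 ± 0.45, limma adjusted p = 0.0289). Eml3, a microtubule-binding protein 338 bp away, had 20.4 and 16.9 FPKM in P2 GFP+ cells, against 24.5 and 54.7 FPKM in P2 GFP- cells (log2 -0.94, limma adjusted p = 0.348). Eml3 passed the test without the E14 libraries, in the same direction as Rom1 (limma adjusted p = 0.0444). Rom1 was also higher in P2 GFP+ cells than in E14 GFP+ cells, where it had 2.69 and 3.23 FPKM (log2 2.72 ± 0.45, limma adjusted p = 0.0344). Serinc4, Slc30a3 and Cfap61 were also lower in P2 GFP+ than in P2 GFP- cells, with 10.3 FPKM or less in P2 GFP- cells. Srd5a1, a steroid 5-alpha-reductase, was the only partner higher at P2, with 24.4 and 26.3 FPKM in P2 GFP+ cells, against 13 and 11.2 FPKM in P2 GFP- cells (log2 1.01 ± 0.19, limma adjusted p = 0.0454). It passed in all 3 comparisons, while Nsun2, an RNA methyltransferase 553 bp away, passed in none of them with all 12 libraries. Nsun2 was higher too without the E14 libraries, by 0.79 ± 0.12 at E18 and 0.43 ± 0.12 at P2 on the log2 scale (limma adjusted p = 0.000728 and 0.0228).

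Between ages of GFP+ cells, Dbi showed the highest levels. Dbi encodes an acyl-CoA-binding protein and had 919 and 407 FPKM in P2 GFP+ cells, against 110 and 120 FPKM in E14 GFP+ cells (log2 2.40 ± 0.40, limma adjusted p = 0.0336). Its partner 3110009E18Rik, 91 bp away, had 5.1 and 5.8 FPKM in P2 GFP+ cells, against 8.13 and 8.39 FPKM in E14 GFP+ cells, and did not pass the test (limma adjusted p = 0.488). Dhx32, an RNA helicase family member, had 197 and 161 FPKM in P2 GFP+ cells, against 52.2 and 32.9 FPKM in E14 GFP+ cells (log2 2.08 ± 0.36, limma adjusted p = 0.0371). Fank1, 88 bp away, had 0.71 and 0.787 FPKM in P2 GFP+ cells, against 1.08 and 0.554 FPKM in E14 GFP+ cells. Thbs3, a thrombospondin, fell to 4.24 and 4.59 FPKM in P2 GFP+ cells, against 16.7 and 34.4 FPKM in E14 GFP+ cells (log2 -2.21 ± 0.35, limma adjusted p = 0.0294). Its partner Mtx1, a mitochondrial import protein 845 bp away, had 60.5 and 57.6 FPKM in P2 GFP+ cells, against 69.2 and 67.1 FPKM in E14 GFP+ cells.

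**Figure D5:**
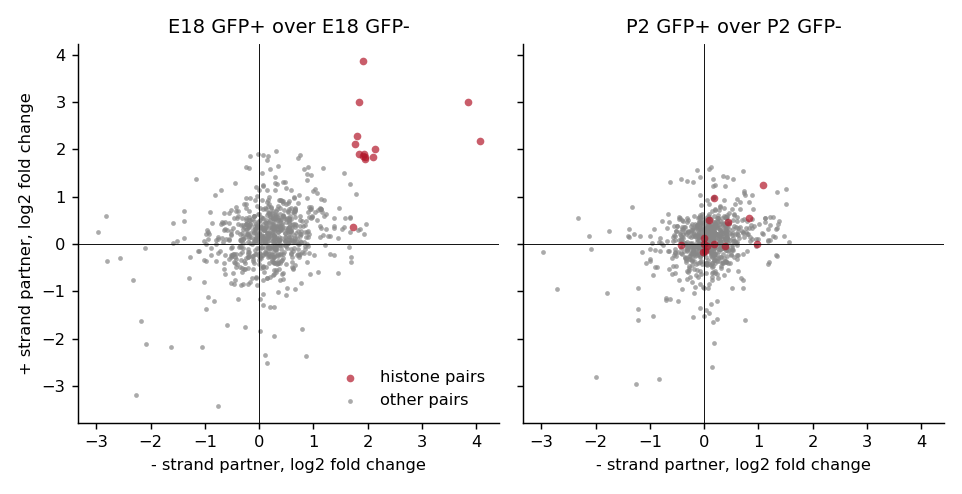
Log2 difference in RNA (log2 of FPKM + 1) of the + strand partner against that of the − strand partner, for each pair with both partners tested, in the comparison of E18 GFP+ with E18 GFP- cells and of P2 GFP+ with P2 GFP- cells. Histone pairs lie at the upper right at E18, and 61% of pairs at E18 have the same sign.

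Over all pairs, partners moved the same way only a little more often than not. At E18 the log2 differences of GFP+ from GFP- cells had the same sign in 447 of 733 pairs with both partners tested (61%), at P2 in 442 (60.3%), and between P2 and E14 GFP+ cells in 429 (58.5%). The same-strand neighbours gave 61.1%, 60% and 55.7%, and divergent neighbours more than 1000 bp apart 58.2%, 57.6% and 54.2%. Both partners passed the test the same way in 8 of 733 divergent pairs at E18, all of them histone pairs, and in none in the other comparisons. At E18 both genes passed the same way in 27 of 542 same-strand neighbours and 20 of 524 more distant divergent ones. Without histone genes, both of these sets had 0 at E18. No divergent pair passed in opposite ways (limma; at an unadjusted p under 0.05, 64 pairs the same way and 7 opposite at E18, 12 and 3 at P2, and 2 and 2 between ages). Without the E14 libraries and the histone genes, 117 pairs passed the same way at E18 and 33 in opposite ways. That is 78% the same way, against 72.7% of same-strand neighbours and 64% of the more distant divergent ones. At P2 the shares were 76.5%, 80.6% and 67.3%. Without the E14 libraries, partners outside histone pairs that passed at E18 were mostly higher, 498 against 176 lower. All genes were near balance (25.5% higher and 25.6% lower). Such a lean raises the share of pairs moving the same way without any link between partners. It also touches the 61% above, since the median log2 difference of partners at E18 was 0.21. The shares were not corrected for this and were not tested against each other.

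The known pairs show both kinds. With all 12 libraries none of their 24 partners passed the test at E18 (limma; 8 higher and 1 lower at an unadjusted p under 0.05), and without the E14 libraries 14 were higher and 1 lower (25.5% and 25.6% of all genes). Brca1 had 42.9 and 42.8 FPKM in E18 GFP+ cells, against 13.1 and 12 FPKM in E18 GFP- cells (log2 1.69 ± 0.25 without E14, limma adjusted p = 0.000662). Its partner Nbr1 had 67 and 72.2 FPKM in E18 GFP+ cells, against 88.7 and 91.4 FPKM in E18 GFP- cells (log2 -0.37, limma adjusted p = 0.119). Mcm4 had 89.5 and 92.4 FPKM in E18 GFP+ cells, against 28.9 and 31 FPKM in E18 GFP- cells (log2 1.57 ± 0.26 without E14, limma adjusted p = 0.00118). Its partner Prkdc had 8.6 and 9.31 FPKM in E18 GFP+ cells, against 6.81 and 6.85 FPKM in E18 GFP- cells (log2 0.35, limma adjusted p = 0.0868). Hspd1/Hspe1 moved together, by 0.50 ± 0.11 and 0.47 ± 0.10 on the log2 scale without E14 (limma adjusted p = 0.00507 and 0.0047). In the E14 libraries Brca1 and Mcm4 were at 1.21 and 6.28 FPKM in the first GFP- library but at 12.7 and 68.9 FPKM in the second.

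By gene group, none of the tested partners of DNA repair (27), DNA replication (14) or mitosis (13) passed at E18 with all 12 libraries (limma; 8, 7 and 6 higher at an unadjusted p under 0.05). Without the E14 libraries, where 25.5% of all genes were higher and 25.6% lower, 18, 12 and 13 of them were higher in E18 GFP+ cells and none was lower. Of the mitochondrial ribosome 16 of 26 were then higher, of the cytosolic ribosome 11 of 12, of the respiratory chain 10 of 27, of tRNA synthetases 4 of 9 and of the proteasome 2 of 6, with none lower. The median log2 differences with all libraries were 1.63 for mitosis, 1.16 for DNA replication and 0.85 for DNA repair. Genes of the same lists outside pairs had medians of 1.76, 1.48 and 0.44. Kif20a, of the mitosis list, had 40.6 and 44.3 FPKM in E18 GFP+ cells, against 11.1 and 12.3 FPKM in E18 GFP- cells (log2 1.78 ± 0.21 without E14, limma adjusted p = 0.000236), while its partner Brd8 had 68.3 and 68 FPKM in E18 GFP+ cells, against 63.7 and 59.4 FPKM in E18 GFP- cells. The summed progenitor markers given above were also higher in these GFP+ cells; their part in these counts was not tested.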

How the data were processed

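RNA-seq (12 libraries) and ATAC-seq (13 libraries) of sorted mouse retinal cells were used as deposited. The RNA table deposited by the authors gives a value for every gene symbol in every library, read here as FPKM from the size and sums of the values. The ATAC table deposited by the authors holds a raw count per 200 bp window and library on mm9. The submitters' processing notes name Bowtie2, HISAT2, Picard 2.10.7, SAMtools 1.5, featureCounts 1.5.3 and bedtools 2.26.0, without roles, and the builds mm9 and mm10.

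Windows were summed into 28488 runs of 10 kb (48 windows lay outside). ATAC counts were tested with edgeR 4.0.16 (quasi-likelihood, TMM, default filter, 7 stages, 6 residual degrees of freedom; E10, with 1 library, took no part in the test over stages), with DESeq2 1.42.0 as an alternative. RNA was tested with limma 3.58.1 with an intensity trend on log2(FPKM + 1), which understates changes of low genes, for the 14276 of 28446 genes that reached 1 FPKM in 2 libraries or more. P-values were adjusted by Benjamini-Hochberg over all features. R was 4.3.3 and Python 3.11.15. Both tests were tested on simulated data.

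Named pairs were the textbook pairs, the 4 pairs with the largest shared or differing RNA changes in each comparison (mean of at least 5 FPKM for a differing one), the 4 with the largest ATAC difference each way (mean count of at least 20) and the 4 with the smallest range over stages. Members and lists were chosen with earlier results of these data known. Of partner symbols, 47 were matched to the RNA table by a synonym and 8 not at all. No 2 libraries held identical values. Same replicate numbers do not pair samples by the labels. Some items that met these rules are not reported here.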

Additional observations from a re-analysis of the deposited data

Results flagged for a closer look

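The difference between sorts was itself different at E18 and P2 for 2 paired histone genes. For Hist1h2ah, the log2 difference of GFP+ from GFP- cells at E18 exceeded that at P2 by 3.99 (limma interaction, adjusted p = 0.0305): it was 4.08 at E18 and 0.09 at P2, where the gene had 0.128 and 0 FPKM in GFP+ cells and was listed at 0 in both GFP- libraries. For Hist1h2br the excess was 2.99 (limma interaction, adjusted p = 0.0305), with 3.0 at E18 and 0.01 at P2. At P2 it had 0 and 0.0163 FPKM in GFP+ cells and was listed at 0 in both GFP- libraries. Genes so near 0 can show almost no difference between sorts at P2, so both excesses largely restate the E18 difference. Histone genes as a group took at least 2.61% of all FPKM in every E18 library and at most 0.0572% in every other, and the part of that in these 2 values was not tested.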

How the results depend on the processing

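Of the ATAC counts, runs changed over stages (1413) ranged from 1012 to 1802 with a library left out, runs higher at P0 (1012) from 571 to 1407 and runs lower (44) from 23 to 79. Runs lower were 87 without E10 and the first P2 library, and also 87 without E10 and both P2 libraries. The start enrichment ratio (2.53) was 2.79 for pairs up to 500 bp apart, 2.05 against lone starts and 1.95 against expressed genes, and 2.5 to 2.54 with a library left out. The ratio of RNA levels (8.14) was 1.34 among genes that passed the filter. RNA calls rest on few libraries, and the counts below are of partners alone, without the share of all genes. Partners higher at E18 (38) numbered 2 to 465 with a library left out, 18 without histone pairs, 590 with only the 4 libraries compared, 6 with a pseudocount of 0.1, 72 after quantile scaling, 465 without both E14 GFP- libraries and 522 without E14. Partners lower at E18 (4) numbered 0 to 154 with a library left out, 217 with 4 libraries, 1 with the smaller pseudocount, 15 after quantile scaling, 154 without E14 GFP- and 176 without E14. Partners higher at P2 (1) numbered 0 to 192, 2 without a filter, 158 with 4 libraries, 0 with the smaller pseudocount, 191 without E14 GFP- and 277 without E14. Partners lower at P2 (4) numbered 0 to 99, 1 with a minimum of 5 FPKM, 86 with 4 libraries, 2 with the smaller pseudocount, 2 after quantile scaling, 99 without E14 GFP- and 135 without E14. Between ages, 5 higher and 5 lower became 0 to 40 and 0 to 52 with a library left out, 2 and 2 without a filter, 0 and 0 with 4 libraries, and 40 and 52 without E14 GFP-. With a replicate block, partners lower at E18 numbered 1, higher and lower at P2 0 and 2, and higher and lower between ages 1 and 2. Same-numbered P2 libraries deviated in opposite ways (r = -0.558), and with the numbers crossed 0 partners were higher at P2. Same-sign pairs between ages were 54.2% among distant divergent neighbours, against 58.5%. Leaving out a library of a group of 2 assumes that the lone one varies like the other groups. The causes of these shifts were not tested. Settings without the E14 libraries, without both P2 libraries and with crossed numbers were chosen after seeing the data.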
